A study of Homo sapiens with 4 samples.

Results

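Ribosomal protein genes were compared across 4 human colorectal cancer cell lines: the soft agar line SA, the colonosphere line SPH, the metastasis line METS and their parental line DLD1. The members were chosen by gene symbol, RPL, RPS, RPLP and RPSA symbols for the cytosolic ribosome and MRPL and MRPS symbols for the mitochondrial ribosome, and not by their values. The rule found 87 cytosolic members (53 of the large and 34 of the small subunit) and 74 mitochondrial members (46 large, 28 small), in all 161 of the 57746 rows of the table. SA was grown from soft agar colonies of DLD1 and SPH from colonospheres, and the labels give both a mesenchymal character. METS was recovered from a metastasis in the lung of a DLD1 xenograft host and, like DLD1, is labelled epithelial. All lines carry the DLD1 background, were cultured in the same serum-containing medium, and have 1 library of total RNA each. A difference between 2 lines therefore has no replicate check. By its title, the series uses the lines as a model of epithelial-mesenchymal transition and its reversal in metastasis.

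The cytosolic ribosome translates the mRNAs of the nucleus and is assembled in the nucleolus, from rRNA and proteins, most of them needed in equal copy number. Its protein genes are among the most strongly transcribed genes of growing cells, and most of their mRNAs begin with a C followed by an unbroken run of pyrimidines, the 5' TOP tract through which the mTOR pathway controls their translation. The mitochondrial ribosome translates only the respiratory chain proteins encoded by mitochondrial DNA, and all of its proteins are encoded in the nucleus and imported.

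The transcription starts show this difference between the groups in sequence. The windows below run from 40 bases before to 20 bases after the annotated start (RefSeq, GRCh38.p14) and were chosen because the results turn on these genes. Capitals mark the longest run of C and T that touches the stretch from 5 bases before to 10 bases after the start. The cytosolic members lie at chr6:132814529-132814588 on the plus strand (RPS12), chr6:33272035-33272094 on the plus strand (RPS18), chr11:119018324-119018383 on the minus strand (RPS25), chr1:6199576-6199635 on the minus strand (RPL22), chr3:170870176-170870235 on the minus strand (RPL22L1), chr4:108620536-108620595 on the plus strand (RPL34) and chr19:1438356-1438415 on the plus strand (RPS15).
RPS12: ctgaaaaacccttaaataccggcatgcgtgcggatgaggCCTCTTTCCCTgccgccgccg
RPS18: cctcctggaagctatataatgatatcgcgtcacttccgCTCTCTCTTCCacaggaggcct
RPS25: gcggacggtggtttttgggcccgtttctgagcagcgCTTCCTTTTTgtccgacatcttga
RPL22: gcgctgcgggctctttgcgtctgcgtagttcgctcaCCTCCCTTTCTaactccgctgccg
RPL22L1: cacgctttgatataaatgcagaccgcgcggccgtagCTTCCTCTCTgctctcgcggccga
RPL34: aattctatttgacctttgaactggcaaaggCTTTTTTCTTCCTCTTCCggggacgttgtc
RPS15: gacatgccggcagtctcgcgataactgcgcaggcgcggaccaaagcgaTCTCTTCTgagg

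The mitochondrial members lie at chr16:1773115-1773174 on the minus strand (MRPS34), chr17:81703327-81703386 on the plus strand (MRPL12), chr3:131502952-131503011 on the minus strand (MRPL3) and chr21:34073538-34073597 on the plus strand (MRPS6).
MRPS34: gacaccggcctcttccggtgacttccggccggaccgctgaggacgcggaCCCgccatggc
MRPL12: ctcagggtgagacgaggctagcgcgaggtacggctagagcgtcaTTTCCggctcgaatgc
MRPL3: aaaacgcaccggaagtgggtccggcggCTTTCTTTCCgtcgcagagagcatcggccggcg
MRPS6: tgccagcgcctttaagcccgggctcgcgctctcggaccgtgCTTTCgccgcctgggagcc

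The run held 10 to 18 bases in the first 6 cytosolic genes shown and 8 in RPS15, where it began 9 bases into the transcript. It held 3 to 5 bases in MRPS34, MRPL12 and MRPS6, and MRPL3 was among the 7 mitochondrial genes with a run of at least 8 bases. The MRPL3 run began 13 bases before the annotated start and ended before it, outside the transcript. In RPL34 the run began 10 bases before the start, so only a part of it is transcribed. A counted run may thus lie partly or wholly before the start. Of the 67 cytosolic members matched to a RefSeq promoter, 53 (79.1%) had a run of at least 8 bases at a start, with a median of 11 bases. Of the 66 matched mitochondrial members, 7 (10.6%) had one, with a median of 4 bases. The share was 17.3% over the 8898 matched genes of at least 1 RPKM in a line, also with a median of 4 bases. A C at the first base stood at 74.6% of the cytosolic, 13.6% of the mitochondrial and 16.5% of these expressed genes.

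**Figure D1:**
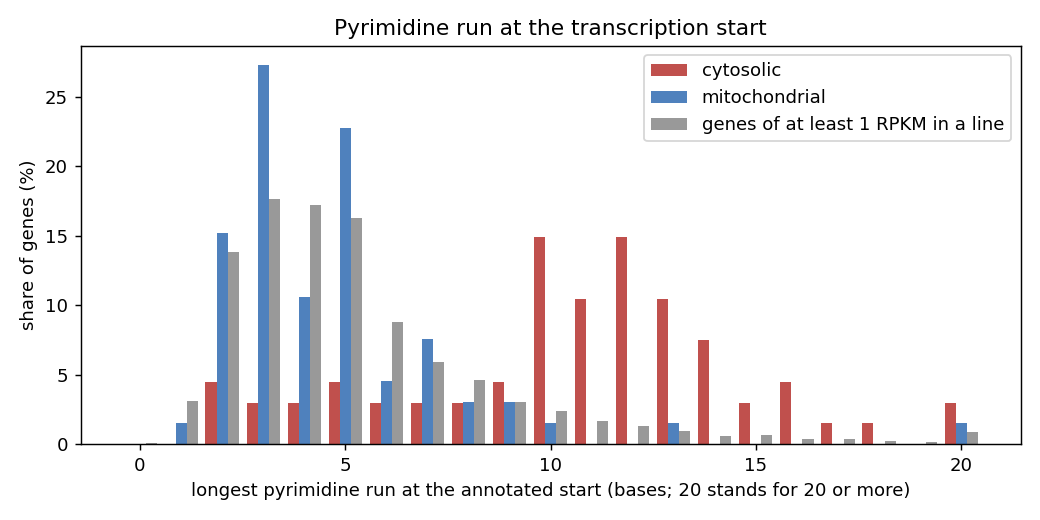
Share of genes (%) by the length in bases of the longest pyrimidine run at an annotated start, for matched cytosolic members, mitochondrial members and genes of at least 1 RPKM in a line; each bar is a share of 1 group, and the last position stands for 20 bases or more. The cytosolic bars gather at 10 bases and above (median 11), and the mitochondrial bars lie where the other genes lie (median 4).

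The promoters, 250 bases before to 50 bases after a start, were also searched on both strands for 5 short motifs. A match may overlap another motif or, read on the other strand, a pyrimidine run. CCGGAAG, the core bound by ETS factors, was found in 35.8% of cytosolic and 42.4% of mitochondrial members, against 24.0% of expressed genes. AAGATGGC, the YY1 core, was found in 10.4% of cytosolic and 31.8% of mitochondrial members, against 6.93% of expressed genes. TATAAA was found in 10.4% of cytosolic and 6.06% of mitochondrial members (7.65% of expressed genes). CCAAT was found in 34.3% of cytosolic and 33.3% of mitochondrial members (43.7%), and the palindromic NRF1 motif in 11.9% of cytosolic and 10.6% of mitochondrial members (14.3%). A match is a description of the letters in the window.

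The 2 groups differed in level by an order of magnitude. Levels are given in RPKM, read numbers divided by gene length and by library size, so that genes of unlike length can be set side by side. Of the cytosolic members, 83 of 87 reached 1 RPKM in a line and 82 did so in every line. The exceptions were RPL10L, RPL3L, RPL12L3 and RPS10L, the last pair listed at 0 in every line. All 74 mitochondrial members reached 1 RPKM in a line, 73 of them in every line. A mean of at least 100 RPKM over the lines was found for 69 cytosolic members and for 1 mitochondrial member, MRPS34, which is needed for a stable mitochondrial small subunit. The median cytosolic member stood at 193 RPKM in SA, 221 in SPH, 229 in METS and 213 in DLD1. The median mitochondrial member stood at 18.2 RPKM in SA, 18.9 in SPH, 18.7 in METS and 19.2 in DLD1.

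Summed, the cytosolic members held 7.31% of all RPKM in SA, 8.26% in SPH, 8.33% in METS and 7.79% in DLD1. The mitochondrial members held 0.617% in SA, 0.620% in SPH, 0.608% in METS and 0.606% in DLD1. Relative to DLD1, SA had a cytosolic sum of 0.922, SPH of 1.06 and METS of 1.09, while the mitochondrial sum was 1.001 for SA, 1.02 for SPH and 1.02 for METS. The cytosolic sum was thus lowest in SA, while the mitochondrial sum hardly differed between the lines. The ratio of the cytosolic to the mitochondrial sum was 11.8 in SA, 13.3 in SPH, 13.7 in METS and 12.9 in DLD1. Within each ribosome the subunits kept their proportion: the ratio of the large to the small subunit sum ran from 1.28 to 1.30 for the cytosolic and from 1.63 to 1.66 for the mitochondrial genes. These values are relative to each library, and RNA per cell was not measured. In a bulk sample, a lower level in each cell and fewer expressing cells cannot be told apart.

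**Figure D2:**
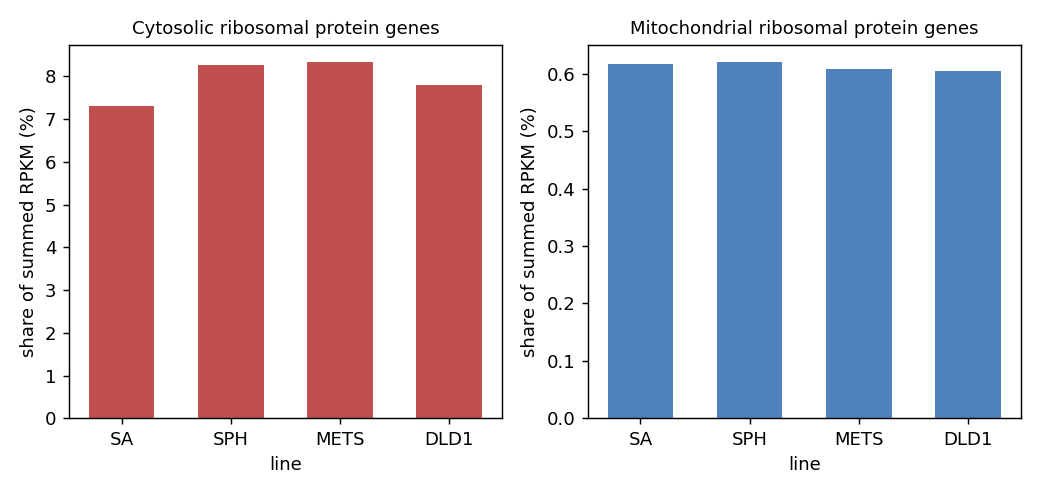
Share of the summed RPKM (%) held by the cytosolic members (left) and the mitochondrial members (right) in each line, 1 library per line, with axes from 0. The cytosolic share runs from 7.31% in SA to 8.33% in METS and the mitochondrial share from 0.606% to 0.620%.

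In SA, most cytosolic members stood below DLD1. On the scale of log2(RPKM + 1), used for all folds here, 64 of the 82 cytosolic members measured were lower and 18 higher, where 44.4% of all 11367 genes were lower and 55.2% higher. Their median log2 fold was -0.09, against 0.03 over all genes and -0.04 over the 635 other genes with a mean of at least 50 RPKM. Of those 635 genes, 57.2% were lower and 42.8% higher, so highly expressed genes in general leaned the same way, though less. The mitochondrial members were divided, 40 higher and 33 lower of 73, with a median of 0.03. The differences were small gene by gene: at least 1.5-fold lower were 1 cytosolic member and, among the mitochondrial ones, MRPL12 (1.40% of all genes), and no member was 1.5-fold higher (1.43%). Past a ratio of 5 to 4, 4 cytosolic members, among them RPS2, RPS15 and RPL8, and MRPL12 were lower (5.61% of genes), and MRPS6 and MRPL1 were higher (5.02%).

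SPH and METS had most cytosolic members above DLD1. In SPH 62 of 82 were higher and 20 lower (55.9% and 43.6% of 11446 genes), with a median of 0.09 against 0.03 over all genes. In METS 70 of 83 were higher and 13 lower (44.7% and 54.9% of 11275 genes), with a median of 0.14 against -0.03 over all genes. The mitochondrial medians were 0.04 in SPH (45 higher, 28 lower) and 0.04 in METS (47 higher, 26 lower). No member of either ribosome differed 1.5-fold from DLD1 in these lines, where 2.59% of genes were higher and 1.98% lower by that much in SPH, and 2.19% and 3.22% in METS. Past a ratio of 5 to 4, SPH had RPS25, MRPS22 and MRPS28 higher (9.22% of genes) and MRPL12 lower (6.57%). METS had 5 cytosolic members, RPL34, RPL7, RPS27A, RPL23 and RPL6, and 8 mitochondrial members higher (7.46%), and 1 cytosolic member lower (12.0%). SA, SPH and METS are each set against the same DLD1 library, so an error in that library would move the 3 comparisons together.

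**Figure D3:**
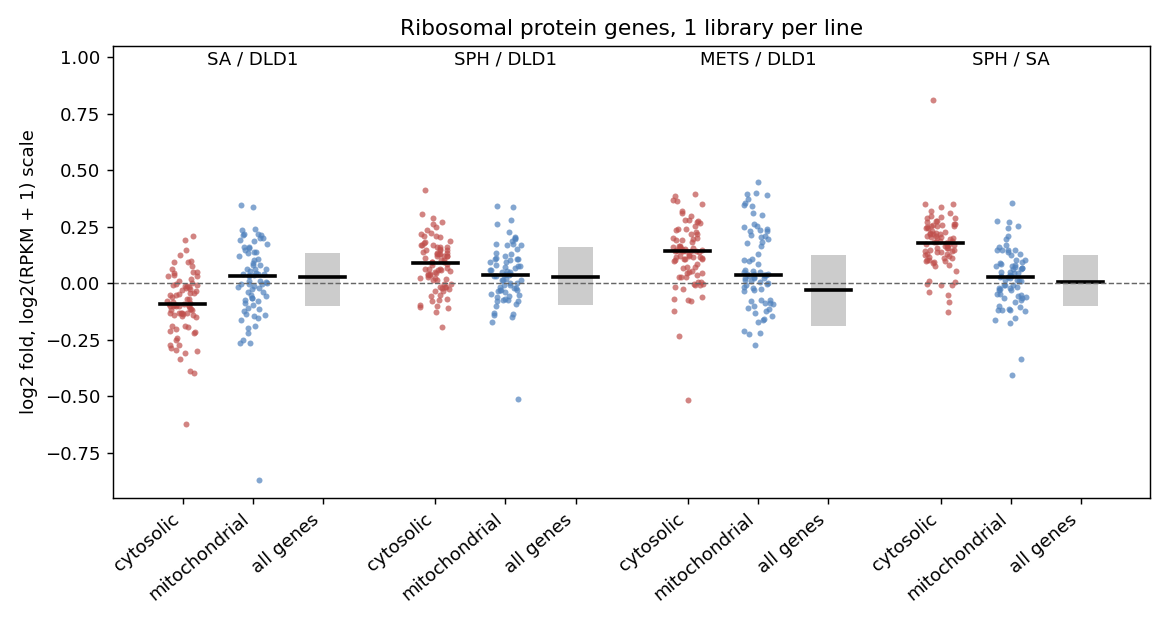
Log2 folds on the log2(RPKM + 1) scale of the cytosolic and mitochondrial members (points, 1 per gene) in 4 comparisons of lines, with black bars at the medians and grey boxes for the interquartile range of all genes. Cytosolic medians are -0.09, 0.09, 0.14 and 0.18 from left to right, and mitochondrial medians lie between 0.03 and 0.04.

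By the median cytosolic member, the 2 mesenchymal lines lay further from each other than from DLD1. Of 82 members, 75 were higher and 7 lower in SPH than in SA (51.2% and 48.3% of 11431 genes), with a median of 0.18 against 0.01 over all genes and 0.01 over the other genes of at least 50 RPKM. The large subunit had a median of 0.18 and the small subunit 0.20. The mitochondrial median was 0.03, with 43 of 73 higher in SPH. At least 1.5-fold higher in SPH was 1 cytosolic member (1.23% of genes), and no member was lower by that much (0.621%). Past a ratio of 5 to 4, 4 cytosolic members, among them RPL3 and RPL13A, and MRPL12 were higher (6.44% of genes) and MRPS6 and MRPL1 lower (3.72%).

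The order of the lines was shared by many cytosolic members. SA was the lowest line for 61 of 83 (73.5%; 15.9% of 11664 genes) and the highest for none (24.0% of genes). METS was the highest line for 47 (24.3% of genes) and SPH for 28 (30.8%). These shares are over all genes, and none was taken over highly expressed genes alone. The arrangement with SA below DLD1 and both SPH and METS above it was found for 40 of 83 cytosolic members (48.2%), against 5.23% of all genes. Among mitochondrial members it was found for 3 of 74 (4.05%): MRPL41, MRPL45, which tethers the ribosome to the inner membrane, and MRPL54. The arrangement has the signs of the cytosolic medians in the same libraries, so its cytosolic count is no separate evidence of a shared order. For the mitochondrial members the lowest line was DLD1 in 27 (25% of genes), METS in 19 (39.8%), SA in 18 and SPH in 10 (20.3%). All 3 derived lines stood above DLD1 for 27 mitochondrial (36.5%) and 17 cytosolic members (20.5%), against 24.4% of genes.

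Among highly expressed members the lines were ordered in more than 1 way. RPS12, a small subunit protein with the highest mean of all members, stood at 1092 RPKM in SA, 1187 in SPH, 1224 in METS and 1138 in DLD1. RPS18, which lies in the head of the small subunit, stood at 678 RPKM in SA, 840.3 in SPH, 881 in METS and 728 in DLD1. RPS6, the ribosomal target of S6 kinase, stood at 619 RPKM in SA, 689 in SPH, 693 in METS and 623 in DLD1. In these 3 genes SA was the lowest line and METS the highest, with SPH next below METS. RPL41, a very short large subunit protein, stood at 662 RPKM in SA, 747 in SPH, 728 in METS and 696 in DLD1, highest in SPH. RPS2 and RPL8, which are as strongly expressed, were highest in DLD1, RPL8 at 608 RPKM in SA, 729.9 in SPH, 729 in METS and 768 in DLD1.

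The stalk that recruits translation factors to the large subunit is built from RPLP0, RPLP1 and RPLP2 on a base that includes RPL12. RPLP0 stood at 549 RPKM in SA, 662 in SPH, 663 in METS and 639 in DLD1. RPLP1 stood at 370.0 RPKM in SA, 447 in SPH, 439 in METS and 398 in DLD1, and RPLP2 at 429 in SA, 488 in SPH, 467 in METS and 473 in DLD1. SA was lowest for all 3 stalk proteins, and SPH and METS lay close to each other. RPL12 stood at 406 RPKM in SA, 461 in SPH, 542 in METS and 503.6 in DLD1, so both mesenchymal lines lay below both epithelial lines.

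RPL5 and RPL11 bind 5S rRNA and, when free, the p53 inhibitor MDM2. RPL5 stood at 411 RPKM in SA, 446 in SPH, 465 in METS and 399 in DLD1. RPL11 stood at 358 RPKM in SA, 405 in SPH, 395 in METS and 358 in DLD1. DLD1 and SA were the lower lines for both, level in RPL11 (log2 fold 0.00). RPS19, the gene most often affected in Diamond-Blackfan anaemia, stood at 182 RPKM in SA, 213 in SPH, 213 in METS and 193 in DLD1, with SA lowest again.

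Some cytosolic members departed from the common order by standing highest in SPH or lowest in DLD1. RPS25, a small subunit protein needed for translation from several viral internal entry sites, stood at 359 RPKM in SA, 414 in SPH, 366 in METS and 311 in DLD1. Its log2 folds against DLD1 were 0.21 in SA, 0.41 in SPH and 0.23 in METS, the largest of any cytosolic member in SA and SPH. RPS27A, made as a fusion with ubiquitin, stood at 423 RPKM in SA, 462 in SPH, 493 in METS and 382 in DLD1. Both genes were lowest in DLD1. RPL21 stood at 26.8 RPKM in SA, 30.5 in SPH, 28.1 in METS and 24.4 in DLD1, low for its group and also lowest in DLD1.

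Others stood highest in DLD1. RPS2, at the mRNA entry of the small subunit, stood at 779.9 RPKM in SA, 973 in SPH, 1018 in METS and 1022 in DLD1. RPS15, in the small subunit head, stood at 183 RPKM in SA, 211 in SPH, 229 in METS and 242 in DLD1. RPL28, of the large subunit, stood at 55.3 RPKM in SA, 66.5 in SPH, 57.7 in METS and 68.1 in DLD1. SA was the lowest line for all 3, with log2 folds against DLD1 of -0.39 for RPS2, -0.40 for RPS15 and -0.30 for RPL28. The 8 cytosolic members below DLD1 in every derived line were RPL18, RPL28, RPL36, RPL8, RPS15, RPS2, RPS27L and RPS28 (9.64%, against 21.4% of genes).

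METS stood apart from the other lines in a few large subunit genes. RPL7 stood at 243 RPKM in METS, against 184 in SA, 183 in SPH and 186 in DLD1. RPL34 stood at 121 RPKM in METS, against 93.9 in SA, 100.9 in SPH and 91.9 in DLD1. RPL7 and RPL34 had the largest log2 folds of METS against DLD1 among cytosolic members measured at 5 RPKM or more, 0.39 and 0.40. RPL39, which lines the exit tunnel, stood at 160.5 RPKM in METS, against 130.3 in SA, 145 in SPH and 130.5 in DLD1, and was highest in METS too. Over all cytosolic members, METS was above the mean of SA and SPH in 72 of 83 and below it in 11 (39.9% and 60.1% of 11600 genes), with a median of 0.12 against -0.05 over all genes. Over the mitochondrial members it was above in 41 of 74, with a median of 0.04. At least 1.5-fold higher in METS than in that mean were MRPL12 and MRPL53 (2.53% of genes), and no member was lower by that much (4.28%). Past a ratio of 5 to 4, RPL7, RPL12, RPS3A and RPL39L were also higher (7.20% of genes), and MRPL3 and MRPL49 lower (13.3%).

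**Figure D4:**
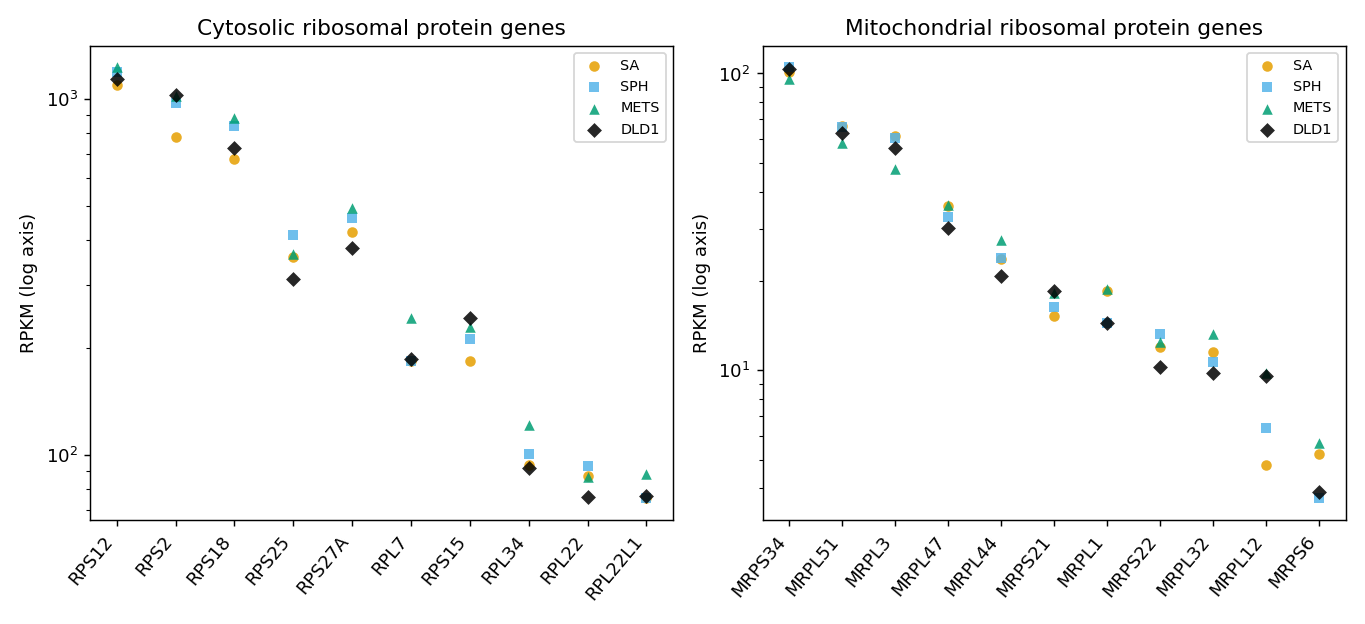
RPKM on a log axis of 10 cytosolic (left) and 11 mitochondrial (right) members, 1 point per line and gene. For RPS25 and RPL22 the DLD1 point is the lowest, for RPL7 and RPL34 the METS point stands alone above the others, and for MRPL12 the SA and SPH points (4.78 and 6.39) lie below METS and DLD1 (9.81 and 9.56).

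Paralogs of standard cytosolic proteins differed in how much of the pair they supplied. RPL22 stood at 87.2 RPKM in SA, 93.4 in SPH, 86.6 in METS and 76.4 in DLD1. RPL22L1, a paralog whose expression RPL22 is known to repress, stood at 75.4 RPKM in SA, 75.9 in SPH, 88.5 in METS and 76.9 in DLD1. RPL22L1 was therefore 86.5% of RPL22 in SA and 81.3% in SPH, against 102% in METS and 100.7% in DLD1. RPL22 was the 1 cytosolic member higher in both mesenchymal lines than in both epithelial lines (1.20%, against 24.8% of genes), and RPL22L1 was among the 16 lower in both (19.3%, against 13.2%). These margins were narrow. RPL22L1 was nearly level with DLD1 in SA and SPH (log2 folds -0.03 and -0.02), and only METS stood apart. RPL22 in SA was nearly level with METS.

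The other paralogs were smaller parts of their pairs. RPL7L1 was 17.0% of RPL7 in SA, 15.6% in SPH, 14.3% in METS and 15.98% in DLD1. RPL26L1 was between 9.38% and 10.8% of RPL26, and RPS27L, a p53 target, between 2.94% and 3.69% of RPS27. RPL39L, known from male germ cells, stood at 0.43 RPKM in SA, 0.64 in SPH, 1.13 in METS and 0.79 in DLD1, under 1% of RPL39 in every line. RPL10L, a testis gene, stood at most at 0.27 RPKM, and RPL3L, a muscle gene, at most at 0.08.

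Several values depend on how reads were shared between like sequences, and the counting rule is not given in the sources used here. RPL36A stood at only 8.33 to 10.6 RPKM, while the readthrough row RPL36A-HNRNPH2 stood at 123 in SA, 170.1 in SPH, 124 in METS and 133 in DLD1. Of 905 rows named as ribosomal protein pseudogenes, 18 reached 1 RPKM in a line. All 905 rows together summed to 283 RPKM in SA, 347 in SPH, 375 in METS and 363 in DLD1. Most of this was RPL13P12 (196 in SA, 252 in SPH, 268 in METS and 258 in DLD1). The pseudogene sum was thus also lowest in SA.

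Mitochondrial members varied one by one more than together. MRPL12, the stalk protein of the mitochondrial ribosome, which also binds the mitochondrial RNA polymerase, stood at 4.78 RPKM in SA, 6.39 in SPH, 9.81 in METS and 9.56 in DLD1. It was low in both mesenchymal lines and level between the epithelial lines, with log2 folds against DLD1 of -0.87 in SA, -0.51 in SPH and 0.03 in METS. Its stalk base partner MRPL11 stood at 27.6 RPKM in SA, 26.5 in SPH, 26.2 in METS and 27.6 in DLD1, nearly level over the lines. POLRMT, the polymerase, stood at 13.5 RPKM in SA, 15.7 in SPH, 14.1 in METS and 16.04 in DLD1.

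MRPL3, of the large subunit core, stood at 61.8 RPKM in SA, 60.4 in SPH, 47.8 in METS and 55.96 in DLD1, the reverse arrangement, with METS lowest. MRPL51 followed it, at 66.6 RPKM in SA, 66.2 in SPH, 58.1 in METS and 62.9 in DLD1. MRPL49 stood at 4.81 RPKM in SA, 4.35 in SPH, 3.45 in METS and 4.15 in DLD1. These 3 were among 11 mitochondrial members (14.9%) above both epithelial lines in both mesenchymal lines, against 24.8% of genes, and MRPL12 among 14 below (18.9%, against 13.2%).

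MRPS6 and MRPL1 separated the mesenchymal lines from each other. MRPS6, of the small subunit platform, stood at 3.70 RPKM in SPH and 5.23 in SA, with 5.69 in METS and 3.90 in DLD1. MRPL1 stood at 14.5 RPKM in SPH and 18.5 in SA, with 18.8 in METS and 14.5 in DLD1. In both genes SPH lay with DLD1 and SA with METS. MRPS21 and MRPS24 were lowest in SA, at 15.2 and 14.4 RPKM, against 18.5 and 17.5 in DLD1.

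MRPS22, of the small subunit, stood at 12.0 RPKM in SA, 13.2 in SPH, 12.5 in METS and 10.2 in DLD1, lowest in DLD1. MRPL44, which has a ribonuclease fold, stood at 23.8 RPKM in SA, 24.0 in SPH, 27.5 in METS and 20.7 in DLD1. MRPL32, whose maturation needs the m-AAA protease, stood at 11.5 RPKM in SA, 10.7 in SPH, 13.2 in METS and 9.81 in DLD1. All 3 stood above DLD1 in every derived line, as did MRPL47 (35.7 in SA, 32.8 in SPH, 36.1 in METS and 30.1 in DLD1). MRPS12, which contributes to the decoding centre, was below DLD1 in every derived line, at 18.9 RPKM in SA, 19.5 in SPH, 17.7 in METS and 21.6 in DLD1.

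MRPS18A, MRPS18B and MRPS18C are 3 paralogs with separate places in the ribosome. MRPS18A stood between 24.6 and 28.5 RPKM, MRPS18B between 31.1 and 36.9 and MRPS18C between 7.42 and 8.18 over the lines. Subunits were assigned by the letter in the symbol, although MRPS18A and MRPS30 are known to sit in the large subunit. MRPS36, now known as a subunit of the alpha-ketoglutarate dehydrogenase complex and not of the ribosome, stood at 10.3 RPKM in SA, 12.3 in SPH, 12.1 in METS and 9.99 in DLD1.

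The labelled classes, mesenchymal (SA and SPH) against epithelial (METS and DLD1), allow a test with 2 lines in each. With limma-trend and Benjamini-Hochberg adjustment over 11262 genes, 40 genes (0.355%) had an adjusted p under 0.05, and 974 (8.65%) an unadjusted p under 0.05. Among the 82 cytosolic members tested, 0 passed the adjusted and 0 the unadjusted threshold. The unadjusted count was 3 with median-of-ratios factors, 3 without DLD1, 2 without SPH and 1 with a minimum of 5 RPKM. Among the 73 mitochondrial members tested, 0 passed the adjusted threshold and 1, MRPL12, the unadjusted threshold. The class fold of MRPL12 was -0.71 ± 0.15 (log2, SE, 2 lines per class), with an adjusted p of 0.249 (limma-trend, Benjamini-Hochberg). The next largest class folds among tested members were those of RPL12 (-0.27), RPS15 (-0.26) and RPSA (-0.24). Their adjusted p lay between 0.581 and 0.619 (limma-trend, Benjamini-Hochberg). RPSA is a small subunit protein also known as a laminin receptor. MRPL53 (-0.40) and RPL39L (-0.35) reached 1 RPKM only in METS and were not tested. The median class fold was -0.06 for the cytosolic members (17 higher, 66 lower of 83), 0.00 for the mitochondrial members (37 higher, 37 lower) and 0.04 over all genes (60.5% higher). The median SE was 0.12 for cytosolic and 0.11 for mitochondrial members.

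Base composition moved with the folds in most comparisons. Across genes, which share their libraries and are not replicates, the log2 fold of SA against DLD1 was correlated with transcript GC content at r = -0.58 in 82 cytosolic members, -0.64 in 73 mitochondrial members and -0.29 over 10734 genes. For METS against DLD1, r was -0.49 in the cytosolic members, -0.64 in the mitochondrial members and -0.28 over 10687 genes. For SPH against DLD1 it was weaker, -0.20 in the cytosolic members, -0.44 in the mitochondrial members and -0.06 over 10806 genes. For SPH against SA, r was 0.48 in the cytosolic members, 0.42 in the mitochondrial members and 0.25 over 10764 genes. RPS15 and RPS2, both low in SA, have a GC content of 62.1% and 59.2%, while RPL7 and RPL34, both high in METS, have 43.4% and 44.8%. MRPL12 has 64.6%. After correction of each fold for GC content and length over all genes, the cytosolic medians were -0.08 for SA, 0.06 for SPH and 0.17 for METS against DLD1, and 0.16 for SPH against SA. These cytosolic medians kept their signs. The GC part of the correction could move them little. For SA against DLD1, the median GC content was 50.3% in the cytosolic members and 50.1% over all genes. The correction was also fitted over all genes, where r was weaker than in the members. It was therefore no test of the part of GC content in the medians. The mitochondrial median of SPH against SA changed sign, to -0.0073. The part of GC content in the fold of single genes was not tested.

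**Figure D5:**
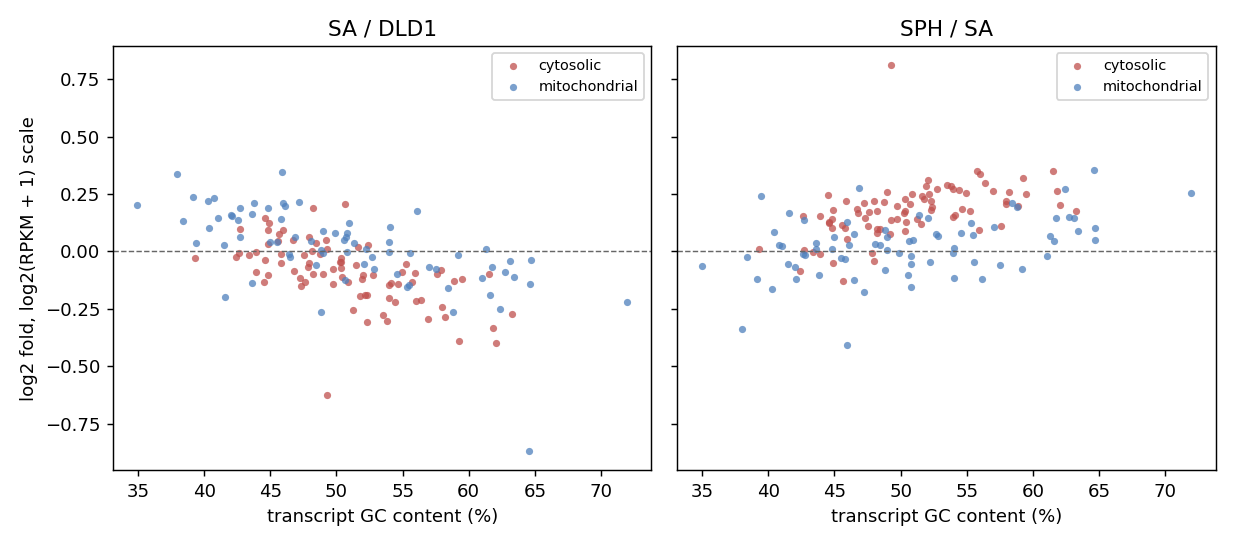
Log2 fold on the log2(RPKM + 1) scale against transcript GC content (%) for SA against DLD1 (left) and SPH against SA (right), 1 point per cytosolic or mitochondrial member. Folds of SA against DLD1 fall with GC content in both groups (r = -0.58 and -0.64), and most cytosolic points of SPH against SA (75 of 82) lie above 0.

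Cytosolic members with and without a long pyrimidine run had medians of the same sign. For SPH against SA, the 53 cytosolic members with a run of at least 8 bases had a median log2 fold of 0.18 (50 higher, 3 lower), and the 13 measured members with a shorter run 0.14 (10 higher, 3 lower). Genes outside both ribosomes with such a run had a median of 0.01 (776 higher, 670 lower of 1456), and those with a shorter run 0.00. The difference between these medians was not tested.

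Other genes that make or use ribosomes are set beside the members by counts and medians, and no difference between lists was tested. Of 50 genes of rRNA synthesis and nucleolar processing, 5 were higher and 45 lower in SPH than in SA, with a median log2 fold of -0.21, opposite in sign to the 0.18 of the cytosolic members (51.2% of all genes were higher and 48.3% lower). Against DLD1 their medians were 0.09 in SA (38 higher, 12 lower), -0.12 in SPH (11 higher, 39 lower) and -0.02 in METS (24 higher, 26 lower). Over all genes, 55.2% were higher in SA, 55.9% in SPH and 44.7% in METS. NOP56, a core protein of box C/D particles, stood at 51.0 RPKM in SPH and 66.3 in SA, with 55.2 in METS and 63.0 in DLD1. RRS1, which helps to assemble the large subunit, stood at 22.1 RPKM in SPH and 31.97 in SA, with 29.2 in METS and 32.1 in DLD1. NPM1, the abundant nucleolar chaperone, stood at 424 RPKM in SPH and 478 in SA, with 464 in METS and 425 in DLD1. All 3 were higher in SA than in SPH, the reverse of RPS18 and RPLP0.

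The 42 cytosolic translation factors were evenly divided, with 21 higher and 21 lower in SPH than in SA and a median of 0.01. EEF1A1 and EEF2, the main elongation factors and known TOP mRNAs, were higher in SPH than in SA, as most ribosomal proteins were. EEF1A1 stood at 2027 RPKM in SPH and 1698 in SA, with 1941 in METS and 1900.4 in DLD1, and EEF2 at 761 in SPH and 651 in SA, with 692 in METS and 820.1 in DLD1. EIF3J, an initiation factor subunit, was 24.7 RPKM in SPH and 35.6 in SA, with 44.5 in METS and 40.6 in DLD1, in the other direction. The translation factors named here were chosen after their values were seen.

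Against DLD1, the 29 mitochondrial translation factors and tRNA synthetases measured had medians of 0.04 in SA (20 higher, 8 lower), 0.04 in SPH (20 higher, 9 lower) and 0.08 in METS (19 higher, 10 lower). The 28 mitochondrial ribosome assembly genes had 0.08 in SA (21 higher, 7 lower), 0.01 in SPH (17 higher, 11 lower) and 0.01 in METS (14 higher, 14 lower). The 13 protein genes of mitochondrial DNA, which the mitochondrial ribosome translates, had 0.03 in SA (7 higher, 6 lower), -0.04 in SPH (5 higher, 8 lower) and 0.07 in METS (9 higher, 4 lower). Most assembly genes thus stood above DLD1 in SA, as did 55.2% of all genes and 40 of 73 mitochondrial members. There, 64 of 82 cytosolic members stood below DLD1. Over all genes, 55.9% were higher in SPH and 44.7% in METS.

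Further lists served as other points of comparison. The 10 ribosomal proteins whose symbols fall outside the rule, such as FAU and DAP3, had medians against DLD1 of -0.05 in SA (4 higher, 6 lower), -0.0031 in SPH (5 higher, 5 lower) and -0.0017 in METS (5 higher, 5 lower). The 19 short ribonucleoprotein genes had 0.05 in SA (10 higher, 9 lower), 0.06 in SPH (15 higher, 4 lower) and 0.01 in METS (10 higher, 9 lower). Over all genes the medians were 0.03 in SA, 0.03 in SPH and -0.03 in METS. No gene of the 7 lists, the nucleolar and translation factor lists included, had an adjusted p under 0.05 in the class test (limma-trend, Benjamini-Hochberg). An unadjusted p under 0.05 was found for 2 nucleolar genes, 1 cytosolic translation factor and 1 mitochondrial assembly gene, and for 8.65% of all genes.

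The libraries were close in depth. From the steps between low values, a gene of 1 kb at 1 RPKM held an estimated 48.6 reads in SA, 52.7 in SPH, 50.2 in METS and 53.9 in DLD1, so members under 1 RPKM rest on few reads. The mesenchymal markers VIM, SPARC, MSN and AXL summed to 22.6 RPKM in SA and 21.6 in SPH, against 0.54 in METS and 0.76 in DLD1. The 6 colon epithelial markers were expressed in every line and summed to 1391 RPKM in SA and 1458 in SPH, against 2345 in METS and 1858 in DLD1. Most of that sum was KRT8 and KRT18. CDH1 stood at 94.5 RPKM in SA and 97.3 in SPH, against 102.7 in METS and 115.3 in DLD1, lower in both mesenchymal lines. EPCAM stood at 222 RPKM in SA and 231 in SPH, against 263 in METS and 212 in DLD1, CDX2 at 31.4 in SA and 36.0 in SPH, against 27.6 in METS and 31.9 in DLD1, and VIL1 at 1.89 in SA and 1.41 in SPH, against 3.35 in METS and 1.39 in DLD1, so these 3 did not separate the classes. Markers of fibroblasts, endothelium and leukocytes were at most 0.40 RPKM in any line, with between 2 and 4 of the 4 to 6 markers of a list at 0.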

How the data were processed

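Total RNA of 4 lines was sequenced, 1 library per line, after standard Illumina library preparation, per the labels' protocols. A value for each gene in each line, to 2 decimals, is in the deposited table. Those RPKM values of the authors were recognised by being not whole, with unequal column sums (275639 to 284919). Per the submitters' processing notes, hg19 was used. Aligner, counter, annotation and strand use: not given in the sources used here. Values were used as deposited, with a pseudocount of 1. A gene entered a comparison of lines where the higher library reached 1 RPKM, and the class test where at least 2 of 4 libraries did. The class test was limma-trend (limma 3.58.1, R 4.3.3) and was tested on simulated data. Folds between single lines have no test. GC content and length came from GENCODE 29, and the correction was a lowess with span 0.3. Python 3.11.15, pandas 2.3.3, numpy 2.4.6, statsmodels 0.14.6 and matplotlib 3.10.9 were used. The members and lists were chosen with earlier results of these data known. Named members are the 3 highest and 3 lowest by each fold and by level (at least 5 RPKM for folds), paralogs with their partners and members listed by role; others are named beside a count or order, after their values were seen. Alternatives were other pseudocounts, filters, scalings and fold limits, core members without paralogs, and leaving out each library. A few members that the rule or a count would name are not reported here.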

Additional observations from a re-analysis of the deposited data

How the results depend on the processing

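The class test called 0 cytosolic and 0 mitochondrial members under every alternative run, and 0 to 0 when any library was left out, while the calls over all genes then ran from 1 (without SA, and without SPH) to 288 (without DLD1), against 40. A class left with 1 line is assumed to vary like the other. With all libraries kept, 0 of 24097 genes passed with no filter on low values and 5 of 6990 with a minimum of 5 RPKM. Where so few genes pass at all, a count of 0 among the members says little about them. The medians of SA, SPH and METS against DLD1 kept their sign under every alternative run, and the lines kept their order by cytosolic share, with METS highest and SA lowest, when the sum left out genes of mitochondrial DNA (11.3% in METS, 9.96% in SA) or genes under 1 RPKM. With the GC and length correction the mitochondrial median was 0.12 for METS against DLD1 (0.04 as deposited) and -0.0073 for SPH against SA (0.03). For METS against the mean of SA and SPH, the cytosolic median (0.12) became 0.18 with median-of-ratios factors, 0.17 with the GC and length correction and 0.17 when centred on the median of all genes; the mitochondrial median (0.04) became 0.090 with median-of-ratios factors and 0.090 when centred. The centring was added after seeing the data. The counts at 1.5-fold rest on single genes. With a pseudocount of 5 the counts for SA against DLD1 were 0 cytosolic and 0 mitochondrial, and for METS against the mean of SA and SPH 0 mitochondrial. With a pseudocount of 0.1 METS against DLD1 had 1 mitochondrial and METS against the mean of SA and SPH 1 cytosolic member. Without paralogs the cytosolic counts were 0 for SA against DLD1 and 0 for SPH against SA, and with a minimum of 5 RPKM METS against the mean of SA and SPH had 1 mitochondrial member. Past a ratio of 5 to 4 the cytosolic and mitochondrial counts were 4 and 3 for SA against DLD1, 1 and 3 for SPH against DLD1, 6 and 8 for METS against DLD1, 4 and 3 for SPH against SA, and 4 and 4 for METS against the mean of SA and SPH. At 2-fold, all counts were 0. Of 56 named members with a class fold, 33 changed its sign under some alternative. The cause of these changes was not tested, except that fewer members and larger pseudocounts lower a count by construction. Depth limits members under 1 RPKM, and the spread between cultures of a line is unknown.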
